A study of Mus musculus with 26 samples.

Results

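Transcripts of 5 chemokines were followed through lung inflammation in mouse macrophages: Cxcl9, Cxcl10, Cxcl16, Ccl5 and Pf4. They were chosen by name, as 4 attractants of T cells and 1 chemokine stored in platelets, and each has 1 row among the 55487 genes of the count table. The RNA came from mouse lung cells labelled resident alveolar macrophages (AM), the phagocytes that live in the air spaces, and from cells labelled as macrophages of bone marrow (BM) origin, which enter the lung during inflammation. Lungs were taken without treatment (day 0, AM alone) or 1, 3 and 7 days after lipopolysaccharide (LPS), a component of Gram-negative bacteria that inflames the airway, was placed in the trachea. There are 26 libraries: 3 of untreated AM, then 4, 3 and 4 of AM and 5, 4 and 3 of BM macrophages on days 1, 3 and 7. A library is named by group and replicate, as in AM_day1.3. The labels give no strain, age, sex or sorting gates, apart from the word Young in the descriptions of the AM day 0 samples. Nothing says that each replicate is another animal, and the p-values therefore reflect only the spread among these samples, part of which may be technical.

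Chemokines are small secreted proteins that draw leukocytes along a gradient. Cxcl9 and Cxcl10 bind the receptor Cxcr3 on activated T cells and NK cells, and both genes are classical targets of interferon signalling. Cxcl16 is made as a membrane protein that binds Cxcr6 and can be shed by proteases, Ccl5 binds receptors that include Ccr1 and Ccr3, and Pf4, or platelet factor 4, is the alpha-granule chemokine of platelets that some tissue macrophages also transcribe.

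The sequences upstream of 3 members are shown because interferon and NF-kB elements are the elements best known at genes of this kind. They are the 250 bases before the RefSeq start (build GRCm38.p6), 5′ to 3′ on the strand of the gene, with motif matches in capitals. Cxcl9 lies at chr5:92328080-92328329 on the minus strand, Cxcl10 at chr5:92348890-92349139 on the minus strand and Pf4 at chr5:90772185-90772434 on the plus strand.
Cxcl9: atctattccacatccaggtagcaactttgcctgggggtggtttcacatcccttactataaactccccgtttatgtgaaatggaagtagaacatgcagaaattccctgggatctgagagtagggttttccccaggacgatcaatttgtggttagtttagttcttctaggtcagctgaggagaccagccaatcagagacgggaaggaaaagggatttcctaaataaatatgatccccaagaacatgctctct
Cxcl10: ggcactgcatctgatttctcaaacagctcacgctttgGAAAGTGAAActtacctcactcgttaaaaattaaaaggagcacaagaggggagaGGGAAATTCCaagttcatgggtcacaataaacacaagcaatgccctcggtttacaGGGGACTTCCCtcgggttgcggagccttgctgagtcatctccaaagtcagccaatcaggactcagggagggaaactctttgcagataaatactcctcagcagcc
Pf4: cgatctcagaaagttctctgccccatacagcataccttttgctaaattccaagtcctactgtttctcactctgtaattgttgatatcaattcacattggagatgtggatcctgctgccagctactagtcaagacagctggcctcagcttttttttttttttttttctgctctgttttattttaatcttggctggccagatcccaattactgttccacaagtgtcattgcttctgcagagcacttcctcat
3 motifs were searched on both strands: the core of the interferon-stimulated response element (GAAA, any 2 bases, GAAA), the interferon gamma-activated site (TTC, any 3 bases, GAA) and the kB consensus. The Cxcl10 window held the response element core as GAAAGTGAAA, at positions −213 to −204 from the start. It also held 3 matches to the kB consensus, GGGAAATTCC at −159 to −150 and the overlapping GGGGACTTCC (−104 to −95) and GGGACTTCCC (−103 to −94). In the Cxcl9 and Pf4 windows no exact match to these letters was found, and the gamma-activated site was in none of the 3 windows. Forms of the elements that depart from these letters, and sites outside the windows, were not searched. Among 32851 such windows of all genes, 2.98% held the response element core, 7.02% the gamma-activated site and 7.25% the kB consensus. The table used had no entry for Cxcl16 and Ccl5.

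In GENCODE M21 on GRCm38, Cxcl9 (ENSMUSG00000029417, chr5:92321347-92328079, minus strand) and Cxcl10 (ENSMUSG00000034855, chr5:92346638-92348889, minus strand) are neighbours 18558 bases apart. Pf4 (ENSMUSG00000029373, chr5:90772435-90773383, plus strand) is on the same chromosome, 2371 bases from the platelet chemokine gene Ppbp. Cxcl16 (ENSMUSG00000018920, chr11:70453983-70459984) and Ccl5 (ENSMUSG00000035042, chr11:83525778-83530518) are both on the minus strand of chromosome 11. Exons of Cxcl16 share 552 bases, 18.3% of their length, with exons of Zmynd15 on the other strand, and those of Cxcl10 share 133 bases, 5.91%, with Art3. The labels describe stranded libraries, but the strand setting of the counting is not given in the sources used here, so reads from these shared stretches cannot be told apart. Zmynd15 had medians of 11.4 to 54.2 CPM (counts-per-million, relative to the total of the library) in the AM groups and of 33.3, 188.5 and 139.2 CPM in BM macrophages on days 1, 3 and 7. Art3 did not exceed 13.5 CPM in any library.

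Library totals ran from 9176202 to 80816742 counts, with 35.8 to 80.8 M in AM day 0, and every library counted Cxcl9, Cxcl10, Cxcl16, Ccl5 and Pf4 at least once. Markers matched the labelled cell types in the AM groups, where 11 alveolar macrophage genes summed to 18780 to 31820 CPM, against 987 to 15120 CPM in the BM groups. 4 libraries stood apart. In BM_day3.1 only 9126 genes had a count, its median correlation with the other BM day 3 libraries was 0.79, and 10 structural cell markers summed to 29240 CPM, where the other 3 had 58.6 to 366. BM_day1.3 had 9684 genes with a count and a median correlation of 0.867. AM_day1.3 had the fewest counts of all libraries and 2139 CPM of 11 neutrophil markers, against 981 to 1200 in the rest of AM day 1. BM_day7.3 had 2398 CPM of the 11 alveolar macrophage genes and 26.7 CPM of 17 T and NK markers, against 14220 and 15120 and 140 and 134 CPM in the other two BM day 7 libraries. RNA of Y-linked genes summed to at least 148 CPM in every AM library of days 0, 1 and 3. The BM day 1 libraries had 7.2 to 41.3 CPM, and no day 7 library had more than 4.02 CPM. In BM day 3 it was at most 0.176 CPM in 2 libraries and 171 and 175.5 CPM in the other two. This measure of sex therefore moved with day within AM and with cell type on day 1, and the calls it ends as a covariate are given beside the results. The AM day 0 and BM day 1 libraries each carry a library prefix of their own in the labels, whose meaning is not stated, so comparisons with these groups cannot be told apart from that prefix.

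**Figure D1:**
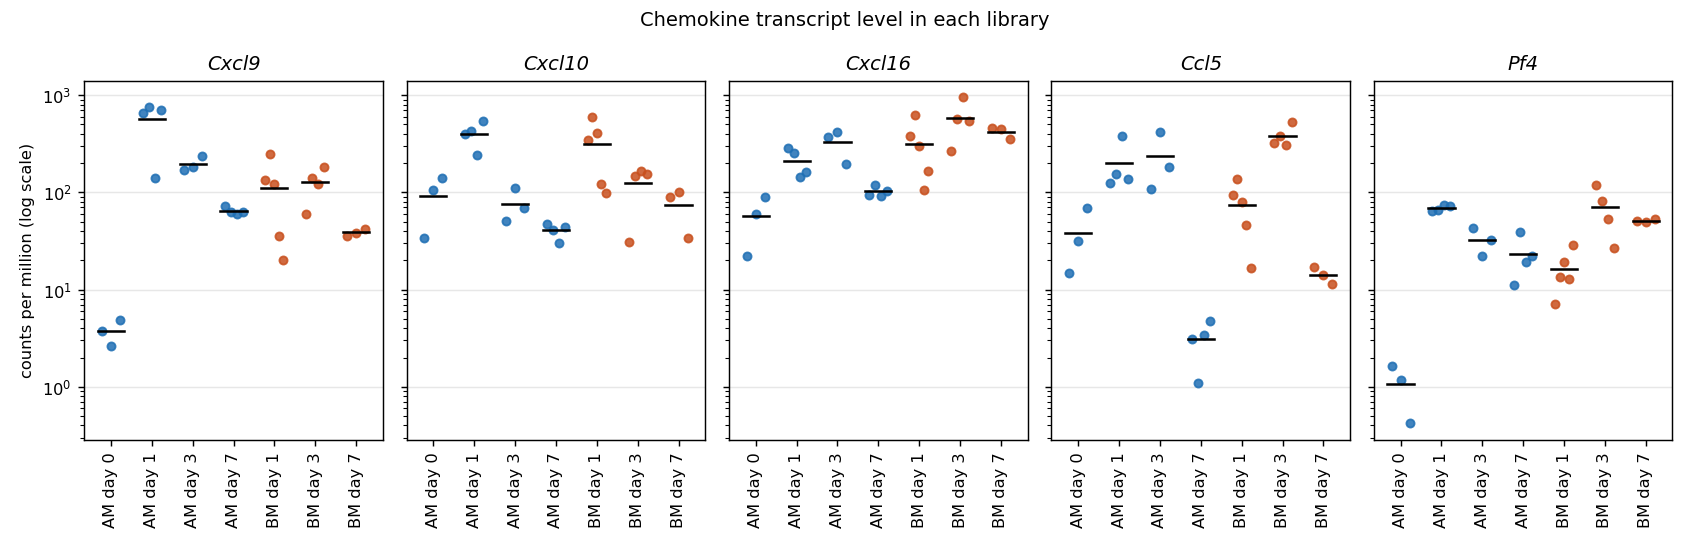
Level of each chemokine in CPM (log axis), 1 point per library, blue for AM and orange for BM groups, with the group mean as a line. Cxcl9 and Pf4 were lowest in AM day 0, and Ccl5 was lowest in AM day 7.

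All 5 chemokines were higher in resident macrophages 1 day after LPS than without it, and their later courses differed. A gene is called here at an adjusted p under 0.05 in edgeR's quasi-likelihood test, with Benjamini-Hochberg adjustment over the 17143 genes tested, and all 5 members passed the filter on low counts. In AM day 1 against day 0, 5 of 5 members were called higher, beside 3.22% of all genes tested called higher and 6.28% called in either direction. At AM day 3 against day 0, 4 of 5 were called higher (all genes: 1.78% higher, 2.51% in either direction), and at AM day 7 against day 0, 2 were higher and 1 lower (all genes: 0.408% higher, 0.268% lower, 0.677% in either direction). These 3 comparisons share the AM day 0 libraries, so they are not independent of one another.

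Between cell types, 3 of 5 members were called lower in BM than in AM at day 1 (all genes: 13.8% lower, 29% in either direction). No member was called at day 3 (all genes: 3.98%), where 0 of 5 had an unadjusted p under 0.05 in edgeR and DESeq2 also called 0. At day 7, 1 was called higher in BM (all genes: 1.48% higher, 1.77% in either direction). From day 1 to day 3, no member was called within AM (all genes: 0.834%), although 3 had an unadjusted p under 0.05 and DESeq2 called 1, and 2 were called higher within BM (all genes: 10.6% higher, 25.9% in either direction). From day 3 to day 7, 1 member was called lower within AM (all genes: 1.35% lower, 1.59% in either direction) and 1 within BM (all genes: 0.898% lower, 3.98% in either direction), in both cases Ccl5. In edgeR 3 members within AM and 2 within BM had an unadjusted p under 0.05, and DESeq2 called 2 in each.

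**Figure D2:**
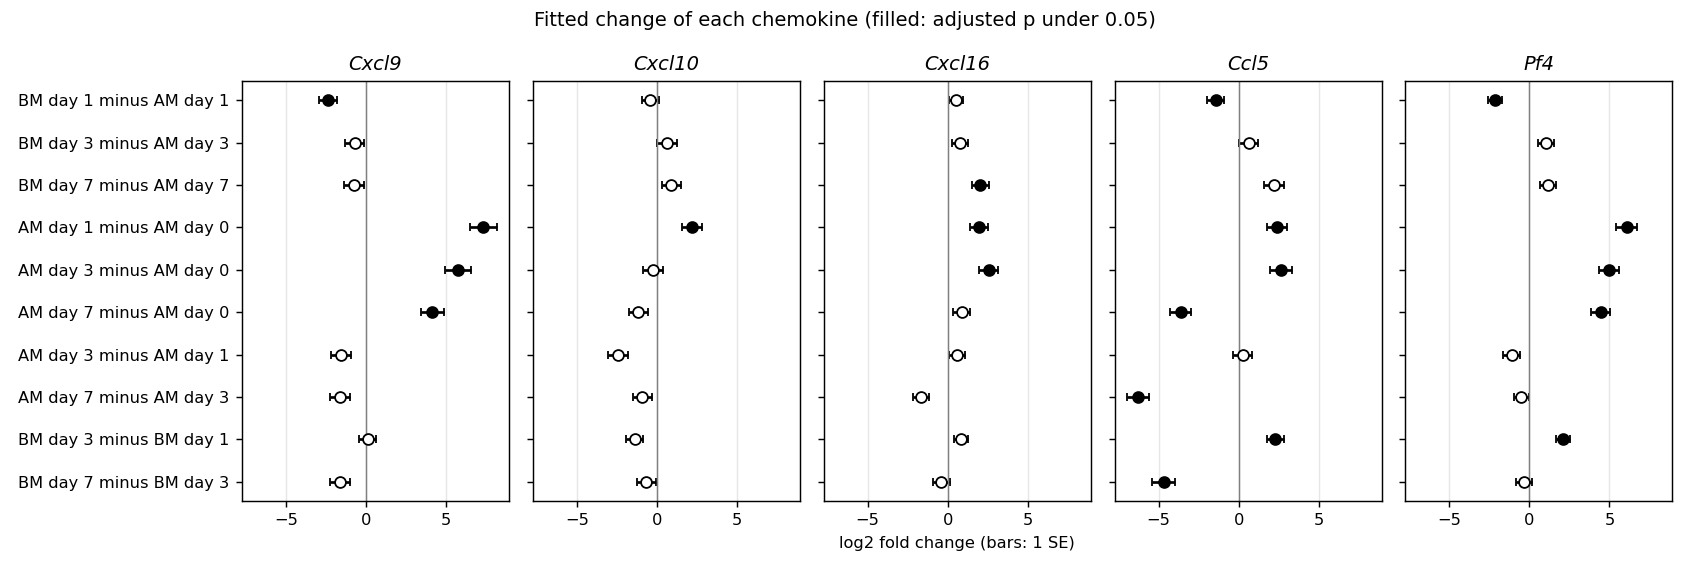
Fitted log2 fold change (horizontal axis, bars of 1 SE) of each chemokine in 10 comparisons of groups, filled where the adjusted p was under 0.05. In AM day 1 against day 0 all 5 points are filled and to the right of 0, and Ccl5 is filled to the left of 0 in both comparisons of day 7 with day 3.

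Cxcl9, the interferon gamma-induced ligand of Cxcr3, was near the bottom of the range in untreated AM and had the largest fitted rise of the 5 chemokines at day 1. Its level was 3.79, 2.61 and 4.83 CPM in the 3 AM day 0 libraries and 653, 753, 139.5 and 708 CPM in the 4 AM day 1 libraries. All AM day 1 libraries were above all AM day 0 libraries, and AM_day1.3 was the low one of its group. The rise was 7.33 ± 0.85 on the log2 scale (SE, adjusted p = 4.3e-06, edgeR), a fold of 161. In these bulk samples a change in the share of cells of a type and a change in RNA per cell cannot be told apart.

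On day 3 the AM libraries held 170.5, 183 and 238.5 CPM of Cxcl9, and on day 7 they held 73.3, 63.2, 59.4 and 62.8 CPM. Each of these values exceeded every day 0 value. The log2 differences from day 0 were 5.76 ± 0.80 at day 3 (SE, adjusted p = 6.7e-05) and 4.15 ± 0.73 at day 7 (SE, adjusted p = 0.004) in edgeR. The day 7 call ended once the Y-linked level was a covariate (adjusted p = 0.12, log2 difference 4.12) and without AM_day0.2 (adjusted p = 0.07). The steps from day 1 to day 3 (log2 difference −1.57, adjusted p = 0.33) and from day 3 to day 7 (−1.61, adjusted p = 0.38) did not pass the test, although the AM day 7 libraries were all below those of day 3. The later step was called in 2 of 37 alternatives, among them AM days 3 and 7 fitted alone (adjusted p = 3.3e-06, edgeR).

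In BM macrophages Cxcl9 was at 135, 250, 121, 35.2 and 19.97 CPM on day 1, a 12.5-fold range within 1 group. The level was 59.8, 142, 122 and 183 CPM on day 3 and 35.4, 38.5 and 42.5 CPM on day 7. All BM day 7 libraries were below all of BM day 3. That step was −1.63 ± 0.64 on the log2 scale (SE, adjusted p = 0.15, edgeR) and did not pass. It was called in 3 of 37 alternatives, DESeq2 among them (adjusted p = 0.04). BM day 1 was lower than AM day 1 by 5.21-fold (log2 difference −2.38 ± 0.54, SE, adjusted p = 0.0024, edgeR), and the ranges of the groups overlapped through AM_day1.3. Without AM_day1.3 the log2 difference was −2.72 (adjusted p = 0.00033), and without BM_day1.3 it was −2.33 (adjusted p = 0.006). At day 3 the BM minus AM difference was −0.71 (adjusted p = 0.6) and at day 7 it was −0.72 (adjusted p = 1), neither called, while all 3 BM day 7 libraries were below all 4 of AM day 7. The day 7 difference was called in 1 of 37 alternatives, the fit to these groups alone (−0.73, adjusted p = 0.0011, edgeR). Ordered by mean level, AM day 1 came first, followed by AM and BM day 3, then BM day 1, AM and BM day 7 and last AM day 0. Only the last 2 steps of that order, from AM day 7 to BM day 7 and from there to AM day 0, separated all libraries of the neighbouring groups.

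Cxcl10, the other interferon-induced Cxcr3 ligand of the set, was already well above the detection limit without LPS. The AM day 0 libraries had 33.6, 105 and 139 CPM and those of AM day 1 had 397, 427, 242 and 543 CPM. All day 1 values were above all day 0 values, within which AM_day0.1 was low. The log2 difference was 2.20 ± 0.64 (SE, adjusted p = 0.041, edgeR), or 4.6-fold. The call ended when any 1 of 15 libraries was left out, 6 of them in the groups compared (all but AM_day1.3), with an adjusted p of up to 0.22 without AM_day0.1.

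By day 3 Cxcl10 was back in the range of untreated AM, at 50.6, 110 and 69.4 CPM, and on day 7 it was at 46.8, 41.2, 30.5 and 44.1 CPM. Day 3 differed from day 0 by −0.23 on the log2 scale and day 7 by −1.15, neither called (adjusted p = 1 and 0.88). The step from AM day 1 to day 3 was −2.43 ± 0.65 (SE, adjusted p = 0.093, edgeR) and did not pass, although no AM day 3 library reached the lowest of day 1. That step was called by DESeq2 and in edgeR without BM_day3.1 (adjusted p = 0.043).

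The BM day 1 libraries held 349, 595, 410, 122 and 99.6 CPM of Cxcl10, which overlaps AM day 1 (log2 difference −0.40, adjusted p = 0.61). On day 3 the values were 31.01, 149, 166 and 154 CPM, with BM_day3.1 low, and on day 7 they were 89.0, 102 and 33.8 CPM. The step from BM day 1 to day 3 was −1.39 ± 0.54 (SE, adjusted p = 0.061, edgeR), and without BM_day1.4 or BM_day1.5 it passed (adjusted p = 0.034 and 0.029). It was also called in 4 of 9 other settings, DESeq2 among them (adjusted p = 0.017). BM_day7.3, which stood apart, was the low library of day 7. The 7 groups overlapped with their neighbours at every step of the order of mean levels, from AM day 1 (402 CPM) down to AM day 7 (40.7 CPM).

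The pair of Cxcr3 ligands was compared within each library per kilobase of exon. The length was that of all annotated exons of a gene together, 3016 bases for Cxcl9 and 2252 for Cxcl10. It need not be the length of the transcripts present, so the size of a ratio also depends on the annotation. In the 3 AM day 0 libraries Cxcl9 was at 0.0186 to 0.0842 of the Cxcl10 level. The ratio was 0.431 to 1.32 in AM on day 1, 1.25 to 2.57 on day 3 and 1.06 to 1.45 on day 7. In every AM library after LPS the ratio was therefore above every day 0 value. BM libraries had 0.15 to 0.313 on day 1, below all AM day 1 libraries, then 0.547 to 1.44 on day 3 and 0.283 to 0.938 on day 7. These ratios are descriptions, with no test of their own.

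**Figure D3:**
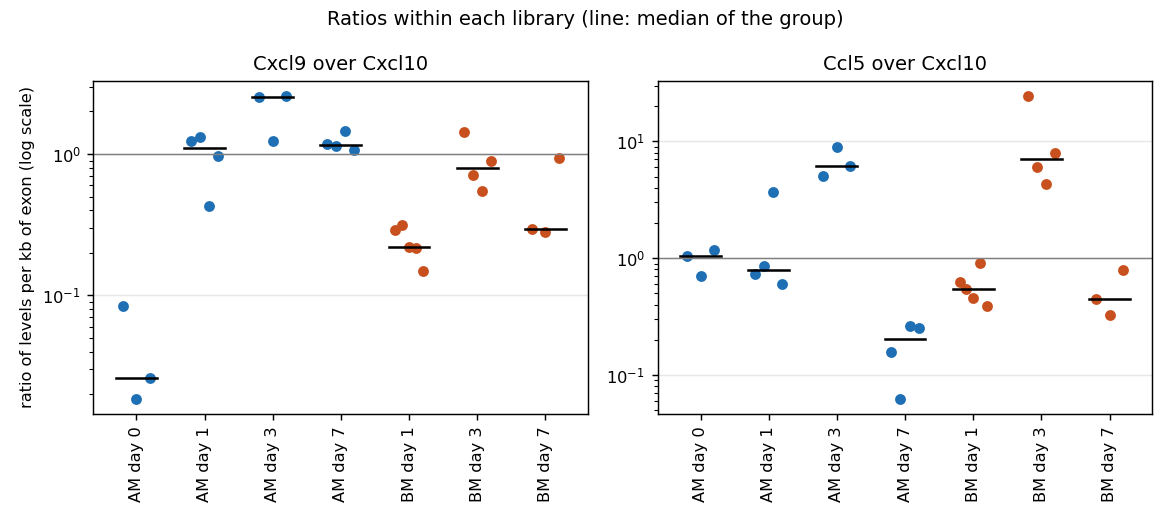
Ratio of Cxcl9 to Cxcl10 and of Ccl5 to Cxcl10 per kilobase of exon (log axis), 1 point per library, blue for AM and orange for BM, with the group median as a line. The median Cxcl9 ratio was 0.0259 in AM day 0, 1.1 in AM day 1 and 0.221 in BM day 1, and the median Ccl5 ratio was 6.17 in AM day 3, 7.02 in BM day 3 and 0.204 in AM day 7.

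Cxcl16, the transmembrane ligand of Cxcr6, rose in AM by days 1 and 3 and stayed high in BM macrophages through day 7. The AM libraries held 22.4, 60.2 and 89.8 CPM on day 0, then 284, 255, 144 and 162 CPM on day 1 and 371, 413.5 and 198 CPM on day 3. No day 1 or day 3 library overlapped day 0. The log2 difference from day 0 was 1.96 ± 0.54 at day 1 (SE, adjusted p = 0.029) and 2.55 ± 0.57 at day 3 (SE, adjusted p = 0.012) in edgeR. Without single libraries both calls ended: at day 1 without AM_day0.1, AM_day0.2, AM_day1.1 or AM_day1.2 (adjusted p = 0.18, 0.13, 0.079 and 0.076), and at day 3 without AM_day0.1, AM_day0.2 or AM_day3.2 (adjusted p = 0.11, 0.084 and 0.065). On day 7 AM had 93.3, 120, 92.3 and 104 CPM, all above day 0, with a log2 difference of 0.87 that was not called (adjusted p = 1). All AM day 7 libraries were below those of day 3. That step was −1.68 ± 0.50 (SE, adjusted p = 0.14, edgeR) and did not pass. It was called in 4 of 37 alternatives, DESeq2 among them (adjusted p = 0.021).

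BM macrophages had 377, 629, 302, 107 and 166 CPM of Cxcl16 on day 1, 267, 572, 950 and 541 CPM on day 3 and 457, 444 and 356 CPM on day 7. At days 1 and 3 these ranges overlapped those of AM, with log2 differences of 0.54 (adjusted p = 0.4) and 0.76 (adjusted p = 0.46). On day 7 every BM library was above every AM library, and the mean of 419 ± 54.6 CPM (SD, n = 3) was set against 102.5 ± 12.9 CPM (SD, n = 4). That difference was 2.04 ± 0.51 on the log2 scale (SE, adjusted p = 0.035, edgeR), or 4.12-fold. It lost its call when any 1 of the 7 libraries compared was left out (adjusted p from 0.086 without AM_day7.2 to 0.13 without BM_day7.1), or AM_day0.2, AM_day3.1 or AM_day3.2, and once the Y-linked level was a covariate (adjusted p = 0.051). Zmynd15, which shares exon bases with Cxcl16, was also higher in BM day 7 (59.4 to 140.3 CPM) than in AM day 7 (7.54 to 13.1 CPM), and its part in this difference was not tested. In BM_day3.1, the library of BM day 3 that stood apart, Zmynd15 was at 0.0879 CPM and Cxcl16 at 267 CPM. Both values were the lowest of that group.

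Ccl5, known as RANTES, was high on day 3 in both cell types and had its lowest mean of each time course on day 7. AM libraries had 15.0, 31.3 and 69.6 CPM on day 0, 125, 155, 379.5 and 138 CPM on day 1, and 109, 417 and 182.5 CPM on day 3. The day 1 and day 3 libraries were all above day 0, and AM_day1.3 and AM_day3.2 were the high ones of their groups. The log2 differences from day 0 were 2.40 ± 0.65 at day 1 (SE, adjusted p = 0.026) and 2.65 ± 0.68 at day 3 (SE, adjusted p = 0.033) in edgeR. At day 1 the call ended without AM_day0.1, AM_day0.2 or AM_day1.3 (adjusted p = 0.17, 0.15 and 0.074). The day 3 call ended without AM_day0.1, AM_day0.2, AM_day3.2 or AM_day3.3 (adjusted p = 0.25, 0.23, 0.29 and 0.055), and without BM_day7.1 or BM_day7.2 (adjusted p = 0.051 and 0.053).

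On day 7 the AM libraries held 3.13, 1.10, 3.42 and 4.72 CPM of Ccl5, each below every other library of the series. From day 3 to day 7 the log2 change was −6.28 ± 0.71 (SE, adjusted p = 5.7e-06, edgeR), a fold of 77.7. This fall was called under all 37 alternatives tried, with an adjusted p of at most 0.0021. Against untreated AM, day 7 was lower by 12.4-fold (log2 difference −3.63 ± 0.64, SE, adjusted p = 0.0044). This call ended without AM_day0.3 (log2 difference −2.85, adjusted p = 0.058) and once the Y-linked level was a covariate (adjusted p = 0.17).

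The BM course of Ccl5 peaked on day 3. Its values were 93.2, 137, 79.5, 46.7 and 16.7 CPM on day 1, 322, 381, 305 and 525 CPM on day 3, and 17.1, 14.0 and 11.3 CPM on day 7. All 4 day 3 libraries were above all BM libraries of the other days. The rise from day 1 to day 3 was 2.30 ± 0.53 on the log2 scale (SE, adjusted p = 0.0041) and the change from day 3 to day 7 was −4.68 ± 0.73 (SE, adjusted p = 0.00057) in edgeR. Without BM_day3.1 these values were 2.39 (adjusted p = 0.0067) and −4.76 (adjusted p = 0.0014), and without BM_day7.3 the later change was −4.55 (adjusted p = 0.0069). Markers of other cells moved with that change. From BM day 3 to day 7 the 8 monocyte markers went from 2368 to 3572 CPM in sum to 896 to 1116, and the 11 neutrophil markers from 626 to 5383 to 168 to 478. The alveolar macrophage sum went from 1835 to 4410 to 2398 to 15120, with 9 of 11 genes called higher (all genes: 3.09%). Their part in the Ccl5 change was not tested.

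Between cell types, Ccl5 was lower in BM than in AM on day 1 (log2 difference −1.42 ± 0.52, SE, adjusted p = 0.046, edgeR), with overlapping ranges. That call ended without any 1 of 14 libraries, 7 of the 9 compared among them (all but AM_day1.4 and BM_day1.2), and without AM_day1.3 the log2 difference was −0.99 (adjusted p = 0.18). It also ended in 5 of 9 other settings, among them the Y-linked level as a covariate (−1.50, adjusted p = 0.11). At day 3 the difference was 0.63 (adjusted p = 0.67). On day 7 all 3 BM libraries were above all 4 AM libraries (14.2 ± 2.89 CPM, SD, n = 3, against 3.09 ± 1.499 CPM, SD, n = 4), with a log2 difference of 2.23 ± 0.62 that did not pass in edgeR (adjusted p = 0.082) and passed in DESeq2.

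T cells and NK cells also transcribe Ccl5, and their RNA was therefore measured beside it. The 17 T and NK markers summed to 431 to 549 CPM in untreated AM and to 72.3 to 167.5, 89.3 to 215 and 293 to 322 CPM on days 1, 3 and 7, of which Cd2 alone gave 341 to 425 CPM in AM day 0 and 281 to 314 in AM day 7. Without Cd2, the other 16 markers summed to 78.0 to 133 CPM in untreated AM and to 15.0 to 56.1, 5.51 to 13.1 and 3.12 to 11.4 CPM on days 1, 3 and 7. The sum of the 16 was lower on each of these days than on day 0, but single markers differed from it. Gzma, which encodes granzyme A, had a median of 7.67 CPM (highest 21.4) in AM day 1 against 1.96 in day 0, and Prf1, which encodes perforin, 3.73 (highest 8.94) against 1.1. The part of these cells in the Ccl5 differences was not tested.

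In the BM groups the 17 markers summed to 12.3 to 42.1 CPM on day 1, 0.0879 to 43.6 on day 3 and 26.7 to 140 on day 7. On day 3, where Ccl5 was highest, 9 of the 17 markers had no count in any of the 4 libraries, among them Cd3d, Cd3e, Cd3g, Trbc2, Gzma and Klrb1c. The remaining markers had counts in at least 1 library. Their highest values were 29.3 CPM for Cd4, 21.9 for Cd2, 5.30 for Cd8a and 4.80 for Nkg7. Cd8b1 and Il2rb reached 4.35 CPM, Trac 3.55 and Ncr1 2.77. BM_day3.1 had 322 CPM of Ccl5 and no count of any of the 16 markers other than Cd2. That library stood apart, with a count in only 9126 genes. In the BM groups, too, the part of these cells in Ccl5 was not tested.

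**Figure D4:**
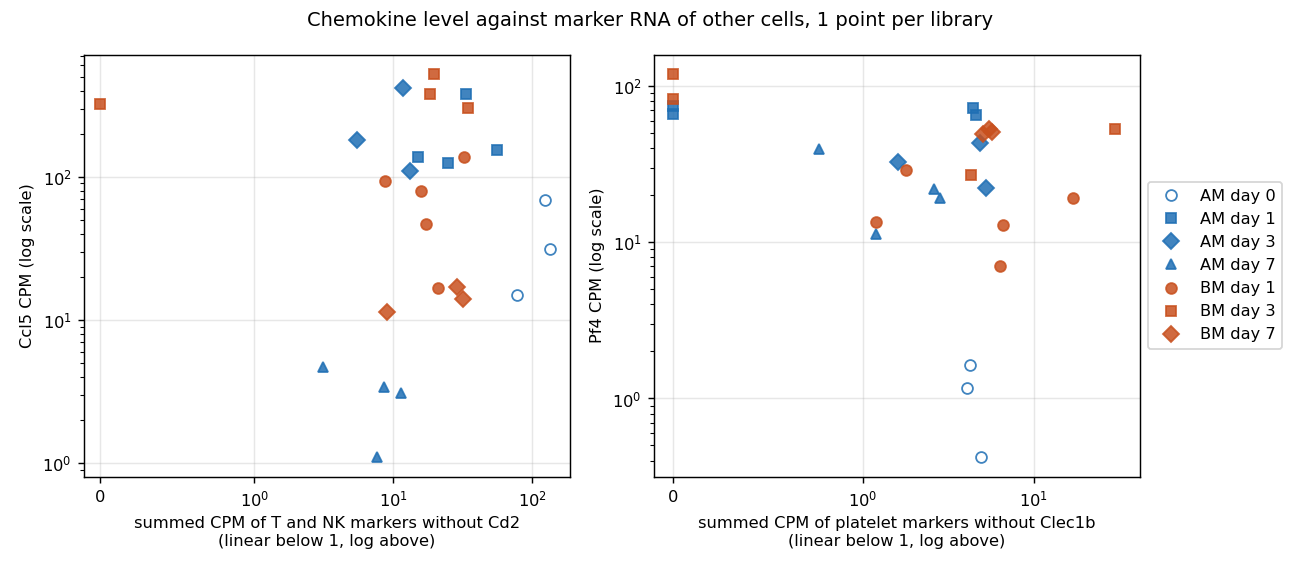
Left, Ccl5 against the summed CPM of 16 T and NK markers; right, Pf4 against the summed CPM of 11 platelet markers, 1 point per library, with the horizontal axes linear below 1 and logarithmic above. BM day 3 has the highest mean of Ccl5 with marker sums of 0 to 34.6 CPM, and AM day 0 has the lowest Pf4 with platelet sums of 4.05 to 4.92 CPM.

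Pf4 was almost absent from untreated AM and was present in every group after LPS. The AM day 0 libraries had 1.63, 1.18 and 0.419 CPM. On day 1 the AM level was 65.0, 66.1, 74.1 and 72.2 CPM, a 1.14-fold range, with a mean of 69.3 ± 4.51 CPM (SD, n = 4). The rise was 6.07 ± 0.65 on the log2 scale (SE, adjusted p = 3.8e-07, edgeR), or 67.3-fold. AM_day1.3, low for Cxcl9 and high for Ccl5, had the highest Pf4 of its group, by a small margin.

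The AM level was 43.2, 22.2 and 32.5 CPM on day 3 and 11.3, 39.5, 19.3 and 22.01 CPM on day 7. All of these were above day 0, by 4.96 ± 0.63 (SE, adjusted p = 6.4e-06) and 4.46 ± 0.60 (SE, adjusted p = 9e-05) on the log2 scale in edgeR. After adding the Y-linked level to the model the day 7 value was 3.74 (adjusted p = 0.018). No later step within AM passed the test, with −1.11 from day 1 to day 3 (adjusted p = 0.38) and −0.50 from day 3 to day 7 (adjusted p = 1).

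In BM macrophages Pf4 was at 7.05, 13.4, 19.2, 12.8 and 28.9 CPM on day 1, 120, 82.4, 53.2 and 27.01 CPM on day 3, and 50.8, 49.5 and 53.0 CPM on day 7. BM day 1 was below AM day 1 without overlap, by −2.15 ± 0.44 on the log2 scale (SE, adjusted p = 0.00057, edgeR), or 4.45-fold. The rise from BM day 1 to day 3 was 2.07 ± 0.44 (SE, adjusted p = 0.0015), with overlap between BM_day1.5 and BM_day3.4, and without BM_day3.1 it was 1.72 (adjusted p = 0.0042). At day 3 the BM minus AM difference was 1.03 (adjusted p = 0.24) and at day 7 it was 1.16 (adjusted p = 0.46), neither called, while on day 7 all BM libraries were above all AM libraries.

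The change of Pf4 from day 1 to day 3 differed between the cell types. The BM change minus the AM change was 3.18 ± 0.68 on the log2 scale (SE, adjusted p = 0.0038, edgeR), and Pf4 was the 1 member of 5 called in that test (all genes: 3.52% higher, 11.5% in either direction). It was called under all 35 alternatives, with an adjusted p of at most 0.02, and was 2.83 without BM_day3.1. None of these alternatives could separate BM day 1 from its own library prefix. For Ccl5 the same difference of changes was 2.05 ± 0.81 (SE, adjusted p = 0.11), and for Cxcl9 it was 1.67 ± 0.82 (SE, adjusted p = 0.21). For the change from day 3 to day 7, 0 members were called (all genes: 0.362%), 0 had an unadjusted p under 0.05 in edgeR and DESeq2 called 0.

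Platelet markers were measured beside Pf4, and their part in its differences was not tested. Of 12 platelet markers, 10 had no count in any BM day 3 library, and Ppbp, the other abundant platelet chemokine gene, had no count in AM day 3, AM day 7 or BM day 3 and at most 1.76 CPM elsewhere. Gp1bb, a subunit of the von Willebrand factor receptor, had no count in any library. The 12 markers summed to 35.4 to 52.8 CPM in AM day 0, where Pf4 was lowest, with 31.3 to 47.9 CPM from Clec1b alone, and to 0 to 27.9, 10.6 to 60.65 and 30.01 to 52.5 CPM in AM on days 1, 3 and 7. The BM sums were 3.15 to 16.9, 0 to 29.8 and 10.04 to 24.1 CPM on days 1, 3 and 7. The 29.8 CPM came from Treml1, a platelet receptor gene, in BM_day3.3, and in BM day 7 both Ppbp and Itga2b, the platelet integrin gene, had counts in all 3 libraries. Without Clec1b, the sum was 4.05 to 4.92 CPM in untreated AM and 0 to 4.58 CPM in AM on day 1, and in BM macrophages it was 1.2 to 16.9, 0 to 29.8 and 5.06 to 5.72 CPM on days 1, 3 and 7.

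Per kilobase of exon, the 5 transcripts changed their proportions from group to group. Which gene led within a library also depends on the annotated exon lengths. Cxcl10 and Ccl5 led in AM day 0, with medians of 37.2% and 37.6% of the summed level. In AM day 1 the median shares were 30.5% for Cxcl9 and 24.7% for Cxcl10, but AM_day1.3 had 56.5% Ccl5 and 6.61% Cxcl9. Ccl5 had the largest median share in AM day 3 (46.3%) and BM day 3 (51.3%), and Cxcl10 in BM day 1 (35.9%). On day 7 Cxcl16 had 29.4% to 32.6% in AM and 50.8% to 52.0% in BM, and Pf4 had 16.5% to 40.6% and 23.8% to 31.6%. Cxcl16 led in every day 7 library except AM_day7.2, where Pf4 led. The Ccl5 medians on day 7 were 3.61% and 5.08%.

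**Figure D5:**
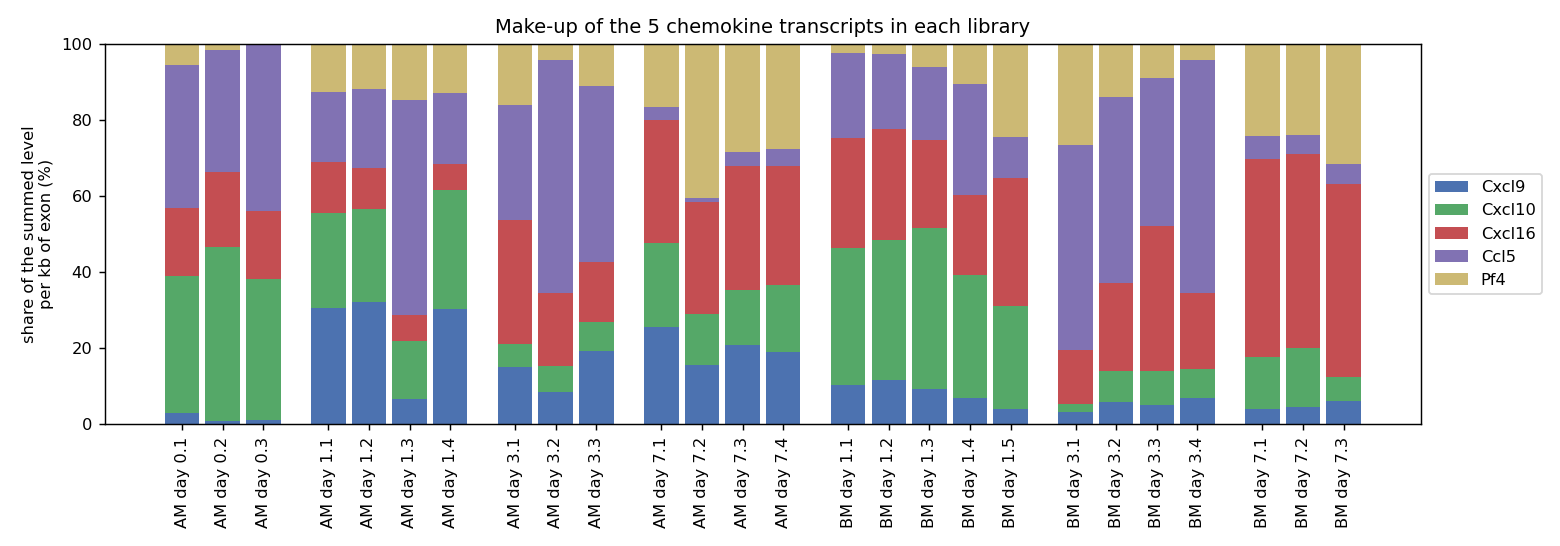
Share of each chemokine in the summed level per kilobase of exon, in percent, 1 bar per library. Ccl5 takes 30.3% to 61.3% of each day 3 bar and 0.85% to 6.13% of each day 7 bar, and AM_day1.3 differs from the other AM day 1 bars.

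Within BM day 1, the highest library and the lowest pair were shared by 4 of the chemokines and not by Pf4. BM_day1.2 was highest for Cxcl9, Cxcl10, Cxcl16 and Ccl5, and BM_day1.4 and BM_day1.5 were the lowest pair for all 4. Pf4 was highest in BM_day1.5 and lowest in BM_day1.1. The sum of 20 interferon-inducible genes was 7711 CPM in BM_day1.2, 1932 in BM_day1.4 and 2301 in BM_day1.5.

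A list of 20 interferon-inducible genes was measured beside the members. In AM day 1 against day 0, 18 of 20 were called higher (all genes: 3.22% higher, 6.28% in either direction). Their median log2 fold change was 4.32, against −0.20 over all genes tested. Among them were Nos2, the inducible nitric oxide synthase (9.66 ± 1.29, SE, adjusted p = 3.2e-05), and the guanylate-binding protein gene Gbp2 (5.60 ± 0.66, SE, adjusted p = 5.7e-06). At AM day 3, 15 of 20 were called higher (all genes: 1.78%), and at day 7, 2 of 20, Gbp3 and Oasl2 (all genes: 0.408%). From day 3 to day 7, 13 of 20 were called lower in AM (median −3.16, beside 1.35% of all genes lower). In BM it was 14 of 20 (median −2.49, beside 0.898% of all genes lower). Rsad2, an antiviral enzyme also called viperin, was at −4.22 in AM and −3.15 in BM. The summed level of the 20 was 422 to 449 CPM in untreated AM, 2245 to 5383 and 658.5 to 715.5 CPM in AM on days 1 and 7, and 1932 to 7711 and 729 to 761 CPM in BM on the same days. AM_day1.3 had the lowest sum of AM day 1, 2245 CPM against 4535 to 5383, together with its low Cxcl9.

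Genes of the NF-kB and interferon pathways, known to act upstream of these chemokines, were taken from lists chosen with earlier results of these data known. Of 11 NF-kB factors and inhibitors, 8 were called higher in BM than in AM on day 1 (all genes: 15.2%), led by Nfkbiz, an atypical nuclear IkB protein (2.44 ± 0.26, SE, adjusted p = 8e-08), and Rel (2.40 ± 0.29, SE, adjusted p = 4.3e-07). From BM day 1 to day 3, 10 of the 11 were called lower (median −1.39; all genes: 15.2% lower). The interferon list held receptors, JAK kinases, STATs and IRFs, and also the feedback inhibitor Socs1. Of its 17 tested genes, 8 were called higher, Socs1 among them, and 1 lower in AM day 1 against day 0. Over all genes, 3.22% were called higher and 6.28% in either direction. Irf7 was at 5.16 ± 0.40 (SE, adjusted p = 1.4e-09). In BM against AM on day 1, 5 of these 17 were called higher, beside 15.2% of all genes, including the receptor chains Ifnar1 (1.71 ± 0.17, SE, adjusted p = 2.6e-08) and Ifngr1 (1.71 ± 0.22, SE, adjusted p = 1.1e-06).

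Receptors of the members were measured in the same cells, and 4 of 7 passed the filter on low counts. Ccr1, the most abundant receptor of the list, had means of 137 to 197.5 CPM and was called in none of the 12 comparisons.

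Of 10 tested genes for other lymphocyte attractants, 1 was called in AM on each of days 1, 3 and 7 against day 0. The shares called over all genes were 6.28%, 2.51% and 0.677% on these days. Cxcl13, a B cell attractant with no count in AM day 0, was higher on day 1 at a mean of 12.5 CPM. Its day 1 values ran from 0 to 38.1 CPM (median 5.94), and 1 of the 4 libraries had no count. Ccl22, a ligand of Ccr4, was lower in AM day 3 than in day 0 (9.56 against 173 CPM in the mean, log2 difference −4.14 ± 0.82, SE, adjusted p = 0.0028). Ccl17, the other Ccr4 ligand, was lower in BM than in AM on day 1 (−4.21 ± 1.15, SE, adjusted p = 0.0094). Among 9 tested proteases and cofactors that cleave or shed chemokines, Adam17, which sheds Cxcl16 among other proteins, had log2 differences of 0.47 to 0.70 from day 0 in AM, none called (adjusted p = 0.18 to 0.54). Mmp12, the macrophage elastase, was called higher in AM on days 1, 3 and 7 than on day 0 (2.82, 1.98 and 2.30).

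Genes often found with Pf4 in tissue macrophages did not all take its course. Of 17 such genes, 7 were called higher and 2 lower in AM day 1 against day 0 (all genes: 3.22% higher, 6.28% in either direction). At AM day 3 against day 0, 8 were called higher (all genes: 1.78%). Among these were the scavenger receptor gene Stab1 (6.58 ± 0.65, SE, adjusted p = 5.5e-07) and the complement gene C1qb (5.91 ± 0.63, SE, adjusted p = 1.6e-06). From AM day 3 to day 7, 8 of 17 were called lower (all genes: 1.35%), with Stab1 at −4.29 and C1qb at −3.35, where the value of Pf4 was −0.50. On day 1, 8 of 17 were called higher and 1 lower in BM than in AM (all genes: 15.2% higher, 13.8% lower), with C1qb at 3.22 ± 0.47 (SE, adjusted p = 1.7e-05), where Pf4 was lower in BM. Other comparisons went the same way as Pf4. From BM day 1 to day 3, 8 of 17 were called higher and 1 lower (all genes: 10.6% higher, 15.2% lower). Their median was 1.45, where Pf4 was at 2.07. In BM against AM on day 7, 9 were called higher (all genes: 1.48%), with a median of 4.48, where Pf4 was at 1.16 and not called.

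Other genes with the most similar profile were found by Pearson's r of log2(CPM + 1) over the 26 libraries, among 9640 genes, as a description of libraries that share groups and depth. Cxcl9 was most like Serpina3g (r = 0.963), Gbp6 (0.939) and Tapbp (0.918). The nearest to Cxcl10 were Ifi205 (0.876), Cd40 (0.85) and Icam1 (0.847), and the nearest to Cxcl16 were Lpcat2 (0.882), the interferon receptor chain Ifnar2 (0.88) and Arhgap10 (0.875). Ccl5 was most like Igsf6 (0.856), the monocyte antigen gene Ly6c2 (0.852) and Gsn (0.851). The group means of Ly6c2 were 643 CPM in AM day 3 and 1070 in BM day 3 against 1.09 and 43.9 on day 7. The genes nearest to Pf4 were Hp (0.849), Wfdc17 (0.839) and Fam20c (0.838), and haptoglobin, the product of Hp, had means of 2.25 CPM in AM day 0 and 394 in AM day 1.

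Sums of markers of other cells differed between the AM groups. The 11 neutrophil markers summed to 79.4 to 95.7 CPM in untreated AM and to 981 to 2139, 580 to 1163 and 84.5 to 124 CPM on days 1, 3 and 7. Of these sums Lcn2, which encodes lipocalin 2, alone gave 560.8 to 1898 CPM on day 1 and 377 to 960.0 on day 3. In AM day 1, 3 of the 11 were called higher than in day 0 (all genes: 3.22%). The 8 monocyte markers summed to 214 to 256 CPM in untreated AM and to 357 to 551, 795 to 1846 and 162 to 224 CPM on these days. The 10 dendritic cell markers summed to 183 to 567 CPM in untreated AM and to 131 to 354, 41.4 to 51.1 and 70.5 to 109 CPM afterwards. The neutrophil and monocyte sums were high in the same AM groups as Ccl5 and Cxcl16, and their part in the AM differences was not tested.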

How the data were processed

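The authors deposited raw read counts per Ensembl gene, with 1 column per library. Per the submitters' processing notes, reads were handled with HISAT2 2.1.0 and featureCounts 2.0.0, beside Trimmomatic 0.39 and FastQC 0.11.9, on GRCm38, and per the labels' protocols the libraries were stranded and poly(A)-selected. Settings, annotation release and strand setting are not given in the sources used here. GENCODE M21 gave a symbol to 55227 of 55487 IDs, and symbols shared by several genes were not used for the lists.

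CPM were computed from the deposited counts and library totals. All 26 libraries entered 1 fit with a coefficient for each group in edgeR 4.0.16, run in R 4.3.3, using TMM, filterByExpr (minimum count 10), the robust quasi-likelihood F test and Benjamini-Hochberg adjustment over 17143 genes in each of 12 comparisons. The SE is the log2 fold change divided by the root of F. Alternatives were DESeq2 1.42.0, its size factors in edgeR, library size alone, no filter or a stricter one (5 CPM in 3 libraries), fitting the compared groups alone, replicate blocks, a library number term, a Y-linked covariate, leaving out libraries and, for levels, TMM-scaled CPM. Marker sums without Cd2 and without Clec1b were added after their values were seen and were not tested. The procedure was tested on simulated data. The members, gene lists and comparisons were chosen with earlier results of these data known. In each list, the genes named are up to 4 called ones with the largest change and a mean of at least 5 CPM, and the most abundant one. Some genes this rule names are not reported here. No pair of libraries held identical values, and replicates of each group differed by more than counting error.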

Additional observations from a re-analysis of the deposited data

Results flagged for a closer look

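A total of 20 groups of 4 or 5 libraries (5 chemokines in 4 groups) were examined for 1 library far from the rest, and chance alone flags about 1 group in 20. The gap test singled out 3. Cxcl9 in AM day 1 was 139.5 CPM in AM_day1.3 against 653 to 753 CPM in the rest of the group, and Ccl5 in AM day 1 was 379.5 CPM in the same library against 125 to 155 CPM. This library also had 132.5 CPM of 5 B cell markers against 2.92 to 33.8 in the rest. Cxcl10 in BM day 3 was 31.01 CPM in BM_day3.1 against 149 to 166 CPM.

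Pf4 is listed for a difference between the cell types: its log2 change from day 1 to day 3 was larger in BM than in AM by 3.1847, as the interaction term in the report gives with its error and adjusted p.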

How the results depend on the processing

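Of 21 called changes of the 5 chemokines over 12 comparisons, 12 were called under every alternative run, and of 39 not called, 28 were called under none. The number called in BM minus AM at day 7 (1) was 0 without a low count filter and with the Y-linked covariate, 2 with the stricter filter, the library number term or DESeq2, and 3 when the 2 groups were fitted alone. The fit to these groups alone called 2948 genes in all, against 303 in the main fit. At day 3 (0) the number term called 1, Cxcl16. AM day 1 minus day 0 (5) gave 2 without a filter, and AM day 7 minus day 0 (3) gave 1 with the Y-linked covariate. AM day 3 minus day 1 (0) gave 1, Cxcl10, when these groups were fitted alone, with the number term, with DESeq2 and without BM_day1.3 and BM_day3.1. AM day 7 minus day 3 (1) gave 4 in the compared groups alone, 3 with the number term and 2 with DESeq2. The compared groups alone called 2246 genes in all, against 272 in the main fit. BM day 7 minus day 3 (1) gave 2 with the number term or DESeq2, and the first interaction, the BM change minus the AM change from day 1 to day 3 (1), gave 2 with DESeq2. The second interaction is the same from day 3 to day 7. Apart from the alternatives that leave out libraries or genes, the cause was not tested. Another scaling moved the median of all genes by less than 0.1.

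The labels do not say that replicate numbers pair the samples. Libraries of 1 number, averaged over all days and cell types, had mean residual correlations of −0.02 to 0.013. Such averages mix days, so they cannot decide whether AM and BM libraries of the same day are paired. The block by title number called 0 in BM minus AM at day 7, where the block by description number called 2. The description block called 1 in AM day 3 minus day 1, and 2 each in AM day 7 minus day 3 and BM day 7 minus day 3. It could not be fitted for comparisons with BM day 1, and the number term only within 1 prefix.

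Leaving out 1 library gave 2 to 3 calls in BM minus AM at day 1, 0 to 2 at day 7, 2 to 5, 2 to 4 and 2 to 3 in AM days 1, 3 and 7 against day 0, 0 to 1 in AM day 3 minus day 1, 2 to 3 in BM day 3 minus day 1 and 1 to 2 in the first interaction. The sign changed in 7 results, with main adjusted p of at least 0.95. With 1 library left out, they spanned −0.63 to 0.22 (Cxcl10, AM day 3 minus day 0), −0.45 to 0.71 (Ccl5, AM day 3 minus day 1), −0.2 to 0.68 (Cxcl9, BM day 3 minus day 1) and −0.12 to 0.66 (Cxcl16, first interaction). In the second interaction they spanned −0.25 to 0.24 (Cxcl9), −0.11 to 0.59 (Cxcl10) and −0.13 to 0.53 (Pf4). Cxcl9 in BM day 3 minus day 1 was −0.14 and in the second interaction 0.01 with the title block. Cxcl10 in the second interaction was −0.12 with the Y-linked covariate and −0.06 without BM_day1.3 and BM_day3.1.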
